A study of Papio anubis with 24 samples.

Results

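The miRNAs miR-192-5p, miR-194-5p and miR-215-5p come from related genomic clusters and are treated here as a small family. They were counted in baboon endometriotic lesions and in the eutopic endometrium (the lining in its normal place in the uterus) of the same animals. They were the rows hsa-miR-192-5p, hsa-miR-194-5p and hsa-miR-215-5p, 3 of 2656 mature miRNAs in the count table, named as in human since reads were matched to human miRNAs and each taken from the precursor row with its highest total. All 3 had counts in all 24 libraries, with totals of 48767 counts for miR-192-5p, 2021 for miR-194-5p and 1192 for miR-215-5p. Their passenger strands, which are the opposite arms of the same hairpins, were nearly absent. Over all libraries miR-192-3p had 9 counts, miR-194-3p had 7 and miR-215-3p had 2, and none of them could be tested.

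In mammals, miR-192 lies in a genomic cluster with one copy of miR-194, and miR-215 lies in a second cluster with the other copy. miR-192 and miR-215 share their seed, the stretch that pairs with target mRNAs, and their mature sequences are nearly the same, whereas miR-194 has a different seed. In humans and mice the clusters are best known from the epithelium of the intestine, kidney and liver, where hepatocyte nuclear factors drive them. They can also be induced by p53, and in human cells miR-192 and miR-215 repress the ZEB transcription factors, a role they share with the miR-200 family that marks epithelium. Because miR-194-5p comes from both clusters with the same mature sequence, its reads do not show which cluster made them: the row of the other precursor held 0.781 to 1.19 times the counts of the row used (median 0.912). How reads that match both miR-192-5p and miR-215-5p were assigned is not stated in those sources that were used here.

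The 24 small RNA libraries were a lesion and the matched eutopic endometrium of each of 12 olive baboons (Papio anubis). The groups were 4 spontaneous lesions, 8 induced lesions, 4 spontaneous eutopic endometria and 8 induced eutopic endometria. Induced disease followed intraperitoneal inoculation with menstrual tissue on consecutive cycles, with tissues taken at necropsy at 15 months, and spontaneous disease had arisen without a stated inoculation, although the labels carry the induction protocol for every sample. Animals are numbered here within each disease, and neither their ages nor the number of lesions behind each library were found in the labels or methods. The study describes baboon tissues of its other assays as mid-secretory, and gives no cycle stage for the sequenced tissues. Spontaneous and induced tissues came from different animals, and any other difference between these animals cannot be told apart from the kind of disease.

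Library totals were 2592999 to 7573913 counts. Thus 3 counts, taken as the floor, lay at 0.396 to 1.16 CPM (counts scaled to library size), before the scaling described next. A single miRNA, miR-143-3p of smooth muscle and fibroblasts, held 4.88% to 71.7% of a library's counts, and levels were therefore scaled by the trimmed mean of M-values (TMM). The other marker lists describe what else the tissues held. All 5 miR-200 miRNAs were present in every library, and their summed level was lower in lesions (225 to 2164 CPM in spontaneous and 442 to 7047 CPM in induced lesions) than in eutopic endometria (4842 to 12489 CPM in spontaneous and 5532 to 18598 CPM in induced animals), with overlap in induced disease. The 4 erythroid miRNAs stood at 908 to 42367 CPM in spontaneous and 960 to 32583 CPM in induced lesions, and at 242 to 19376 CPM and 282 to 1578 CPM in the eutopic endometria of spontaneous and induced animals. The highest of these levels in both tissues of spontaneous disease belonged to spontaneous animal 3. miR-122-5p, which defines hepatocytes, had at most 5 counts in any library. In bulk tissue a lower level can mean fewer cells of a type or less of the miRNA in each cell, and the 2 cannot be told apart.

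miR-192-5p was the main member, and it was lower in lesions. In the 4 spontaneous lesions it was at 190, 120, 160 and 97.0 CPM in animals 1 to 4, against 746, 508, 242 and 435 CPM in the eutopic endometria of the same animals. In the 8 induced lesions the lowest, median and highest levels were 96.5, 241 and 1407 CPM, against 254, 364 and 1178 CPM in the induced eutopic endometria. Every spontaneous lesion was thus below every spontaneous eutopic endometrium, whereas the induced tissues overlapped widely. The mean was 142 ± 41.4 CPM in spontaneous lesions and 483 ± 208 CPM in their eutopic endometria (SD, n = 4), and 403 ± 441 CPM in induced lesions and 448 ± 304 CPM in theirs (SD, n = 8).

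Animal by animal, miR-192-5p was lower in the lesion than in the eutopic endometrium in 9 of 12. The spontaneous lesions held 0.255, 0.236, 0.661 and 0.223 times the eutopic level in animals 1 to 4. In induced disease the lesion held between 0.380 and 1.97 times the eutopic level (median 0.600). The 3 lesions that were not lower all came from induced disease: animal 1 at 1.97 times, animal 5 at 1.02 times and animal 8 at 1.20 times. Animal 8 had the highest level of the series in both tissues, and its lesion and eutopic endometrium stood next to each other at 1407 and 1178 CPM.

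**Figure D1:**
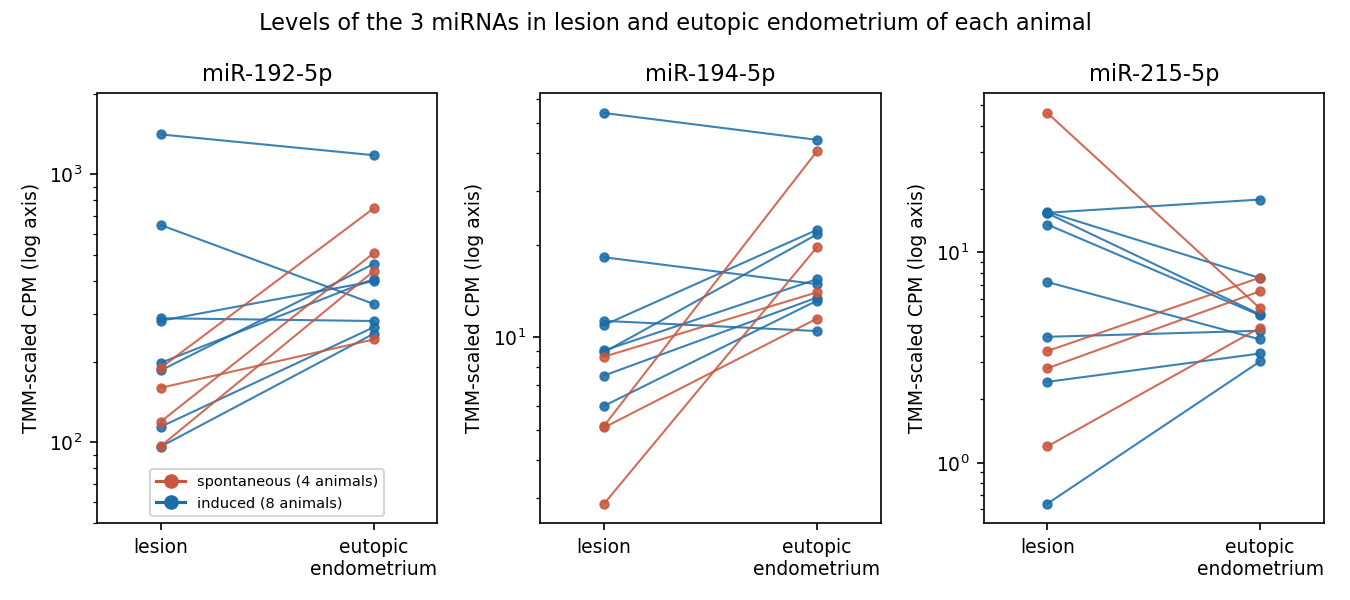
TMM-scaled CPM (log axes) of the 3 miRNAs in the lesion (left) and eutopic endometrium (right) of each animal, joined by a line, with spontaneous disease in red and induced disease in blue. Lines for miR-192-5p and miR-194-5p run lower on the lesion side in 9 of 12 animals each, while those for miR-215-5p cross, with 1 spontaneous lesion at 45.9 CPM.

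miR-194-5p followed miR-192-5p at a far lower level. It was at 5.16, 2.87, 8.66 and 5.09 CPM in spontaneous lesions 1 to 4, against 40.4, 19.7, 14.0 and 11.51 CPM in the matched eutopic endometria. In induced lesions the lowest, median and highest levels were 5.99, 10.02 and 53.8 CPM, against 10.5, 15.2 and 44.0 CPM in induced eutopic endometria. The spontaneous tissues again did not overlap and the induced tissues did. Of the 3 members, 2 had spontaneous lesion and eutopic ranges that did not overlap, where 13.4% of the 485 miRNAs tested in spontaneous disease did so. The lesion was lower in 9 of 12 animals, and the 3 exceptions were the same induced animals 1, 5 and 8 as for miR-192-5p (1.22, 1.08 and 1.22 times the eutopic level). Counting error alone left these 3 folds undecided, since their 95% exact intervals began at 0.949, 0.707 and 0.998.

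miR-215-5p, the seed partner of miR-192-5p, was not uniformly lower in lesions. It was at 2.81, 3.40, 45.9 and 1.20 CPM in spontaneous lesions 1 to 4, against 6.54, 7.59, 5.41 and 4.39 CPM in the matched eutopic endometria. In induced lesions it ranged over 0.639, 10.4 and 15.6 CPM (lowest, median and highest), against 3.04, 4.63 and 17.8 CPM in induced eutopic endometria. Both pairs of ranges overlapped. The lesion was higher in 5 of 12 animals: spontaneous animal 3 at 8.49 times the eutopic level, and induced animals 1, 3, 4 and 5 at 2.70, 3.03, 2.07 and 1.87 times.

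The depth behind miR-215-5p was thin. Its counts were 6, 13, 313 and 4 in the spontaneous lesions, against 17, 22, 27 and 29 in the spontaneous eutopic endometria. In induced disease they were 2 to 123 in lesions, against 15 to 85 in eutopic endometria. The fold with the fewest counts was 0.211 in induced animal 7. It rested on 2 counts in the lesion, below the floor of 3 counts, against 15 in the eutopic endometrium. Its 95% exact counting interval ran over 0.0234 to 0.906. In spontaneous animal 3 the interval was 5.72 to 13.1, so that its excess was larger than counting error, which is the only error these intervals cover.

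The fits over all miRNAs gave the size of each lesion difference with the spread between animals. Over all 12 pairs, with the animal as a block, miR-192-5p fell in lesions by 0.93 on the log2 scale (SE 0.27, Benjamini-Hochberg adjusted p = 0.00999 by edgeR's quasi-likelihood test). miR-194-5p fell by 0.94 (SE 0.28, adjusted p = 0.0126 by the same test), and each was lower in 9 of 12 animals. The log2 fold change of miR-215-5p was 0.22, with a 95% interval of −0.68 to 1.12 (adjusted p = 0.673, edgeR). Thus 2 of the 3 members passed in this comparison, where 52.8% of 527 tested miRNAs passed. The median log2 fold change of those 527 was −0.14. An exact sign-flip permutation of log2 CPM within the 12 pairs gave two-sided p = 0.0107 for miR-192-5p, 0.00391 for miR-194-5p and 0.820 for miR-215-5p. Without the animal block neither call was made (miR-192-5p −0.54, adjusted p = 0.259, and miR-194-5p −0.70, adjusted p = 0.121, edgeR).

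In induced disease alone, none of the 3 members passed, although 43.8% of 507 tested miRNAs did. The log2 fold change of miR-192-5p was −0.54 (SE 0.28, 95% interval −1.16 to 0.07, adjusted p = 0.128 by edgeR's quasi-likelihood test). miR-194-5p stood at −0.55 (SE 0.24, unadjusted p = 0.0466, adjusted p = 0.0881, edgeR). miR-215-5p stood at 0.40 (SE 0.38, adjusted p = 0.397, edgeR). The miR-192-5p value depended on induced animal 1, the animal with the largest excess in its lesion: without it the log2 fold change was −0.75 with an adjusted p of 0.0393 (edgeR). With libraries scaled by their totals alone, the median of all tested miRNAs moved by −0.95. There miR-192-5p and miR-194-5p stood at −1.54 and −1.52 and both passed, and miR-215-5p changed sign to −0.54 without passing. Other alternatives gave smaller falls: over all those run, miR-192-5p ranged over −1.54 to −0.17 and miR-194-5p over −1.52 to −0.32.

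In spontaneous disease the fitted differences were larger and rested on 4 pairs. The log2 fold change of miR-192-5p was −1.73 (SE 0.40, 95% interval −2.67 to −0.79), lower in 4 of 4 animals. Its unadjusted p was 0.00324, the 17th smallest of 485, and its adjusted p was 0.0870 by edgeR's quasi-likelihood test. miR-194-5p stood at −1.88 (SE 0.53, adjusted p = 0.134, edgeR), also lower in 4 of 4, and miR-215-5p at −0.34 (SE 0.94, 95% interval −2.55 to 1.88). None of the 3 members passed, in a comparison where 0.206% of 485 miRNAs did, a single one, against 90 at an unadjusted p under 0.05. The call depended on the tool and on the filter: edgeR-robust and DESeq2 each called 45 miRNAs, and both called miR-192-5p (adjusted p = 0.0129 and 6.81e-04) and miR-194-5p (adjusted p = 0.0272 and 0.0147). With no filter on low counts the quasi-likelihood test itself called 68 miRNAs, miR-192-5p (adjusted p = 0.00181) and miR-194-5p (adjusted p = 0.00845) among them. With 4 pairs the exact sign-flip test cannot go below p = 0.13, the value it gave for miR-192-5p and miR-194-5p.

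**Figure D2:**
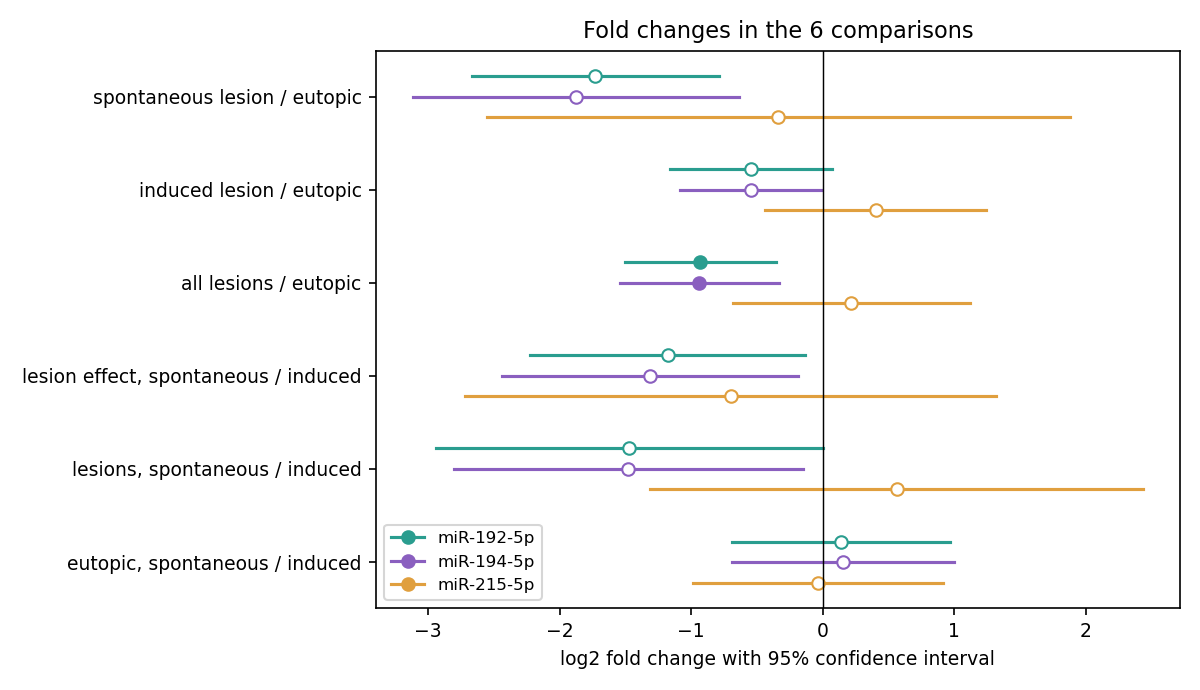
Log2 fold changes of the 3 miRNAs in the 6 comparisons with 95% confidence intervals from edgeR's quasi-likelihood fit, where filled points have an adjusted p under 0.05. Only miR-192-5p and miR-194-5p over all 12 pairs are filled, at −0.93 and −0.94, and the intervals of miR-215-5p include 0 in all 6.

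The lesions of both diseases were then compared directly. Spontaneous lesions had lower fitted levels of miR-192-5p and miR-194-5p than induced lesions, by log2 fold changes of −1.47 (SE 0.68, unadjusted p = 0.0498, edgeR) and −1.48 (SE 0.62, unadjusted p = 0.0315, edgeR). Neither passed (adjusted p = 0.629 and 0.603, edgeR's quasi-likelihood test). An exact permutation of the disease labels over the 12 lesions gave unadjusted two-sided p = 0.176 for miR-192-5p, 0.0343 for miR-194-5p and 0.739 for miR-215-5p. Without induced animal 8, whose lesion had the highest level of both, the log2 fold changes were −0.84 for miR-192-5p and −0.88 for miR-194-5p. No miRNA did: the test called 0% of 467, with 37 at an unadjusted p under 0.05, while edgeR-robust called 7 and DESeq2 called 3. For miR-215-5p the fit gave 0.56 (SE 0.87), while the mean difference of log2 CPM was −0.36, and without spontaneous animal 3 the fit gave −1.93. The positive value for miR-215-5p thus turned negative without that 1 animal, and edgeR-robust gave a negative value (−1.21) with all animals.

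Between the eutopic endometria of both diseases no difference in the family was resolved. The log2 fold changes of spontaneous over induced endometria were 0.14 for miR-192-5p (95% interval −0.69 to 0.97), 0.16 for miR-194-5p (−0.69 to 1.001) and −0.04 for miR-215-5p (−0.99 to 0.92). edgeR's quasi-likelihood test called 0% of 507 miRNAs here, with 54 at an unadjusted p under 0.05, while edgeR-robust called 11 and DESeq2 called 4.

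The fitted lesion effect in spontaneous disease minus that in induced disease was −1.18 for miR-192-5p (SE 0.49, unadjusted p = 0.0296, edgeR) and −1.31 for miR-194-5p (SE 0.53, unadjusted p = 0.0253, edgeR), as log2 differences of the fold changes. For miR-215-5p the difference was −0.70 (SE 0.94), and leaving out 1 animal at a time moved it between −1.78 (without spontaneous animal 3) and −0.13 (without spontaneous animal 4). None passed (adjusted p = 0.956, 0.956 and 0.959, edgeR). The quasi-likelihood test called 0% of 527 miRNAs in this comparison, and edgeR-robust and DESeq2 each called 3. Only 16 had an unadjusted p under 0.05 by the quasi-likelihood test, fewer than the 26.35 expected by chance. An exact permutation of the disease labels over the 12 paired differences gave unadjusted two-sided p = 0.0404 for miR-192-5p, 0.0384 for miR-194-5p and 0.592 for miR-215-5p.

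Ratios within a library do not depend on how libraries are scaled, and those between the members were compared next. The first was that of miR-194-5p to miR-192-5p. Its median was 3.98 counts per 100 of miR-192-5p in spontaneous lesions, 4.64 in spontaneous eutopic endometria, 4.39 in induced lesions and 4.14 in induced eutopic endometria, and 6 of 12 animals had the higher ratio in the lesion. The log2 ratio differed by −0.05 between lesion and eutopic endometrium (SD of pairs 0.54, n = 12, exact two-sided sign-flip p = 0.778).

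The proportion of miR-215-5p to miR-192-5p was narrow in eutopic endometrium and wide in lesions. Spontaneous lesions 1 to 4 held 1.48, 2.84, 28.7 and 1.24 counts of miR-215-5p per 100 of miR-192-5p, against 0.877, 1.495, 2.24 and 1.01 in their eutopic endometria. Induced lesions held 0.559, 2.12 and 15.9 (lowest, median and highest), against 0.829, 1.44 and 1.99 in induced eutopic endometria. All 12 eutopic endometria were thus between 0.829 and 2.24, and 3 lesions stood well above that range: spontaneous animal 3, induced animal 3 at 15.9 and induced animal 4 at 7.86. Their 95% exact counting intervals were 25.2 to 32.6, 13.0 to 19.2 and 6.25 to 9.77.

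The lesion had the higher ratio in 10 of 12 animals, and the mean difference was 1.07 on the log2 scale (SD of pairs 1.27, n = 12, exact two-sided sign-flip p = 0.0083, adjusted p = 0.0427 over the 36 ratio tests). The exceptions were induced animals 7 and 8. The call was not stable: with 0.5 in place of 1 added to each count the adjusted p was 0.0628, and leaving out each animal in turn gave log2 differences of 0.83 to 1.21 with 2 of 12 adjusted p-values under 0.05. Without spontaneous animal 3 and induced animal 3 together, an alternative chosen after seeing the data, the difference was 0.62 (exact sign-flip p = 0.0332, adjusted p = 0.133). The ratio of miR-215-5p to miR-194-5p moved likewise by 1.11 (higher in 9 of 12 animals, exact sign-flip p = 0.0132, adjusted p = 0.0566). The 36 tests are 6 ratios in 6 comparisons that share libraries, and no ratio between members passed in induced disease alone, in spontaneous disease alone or between the diseases.

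**Figure D3:**
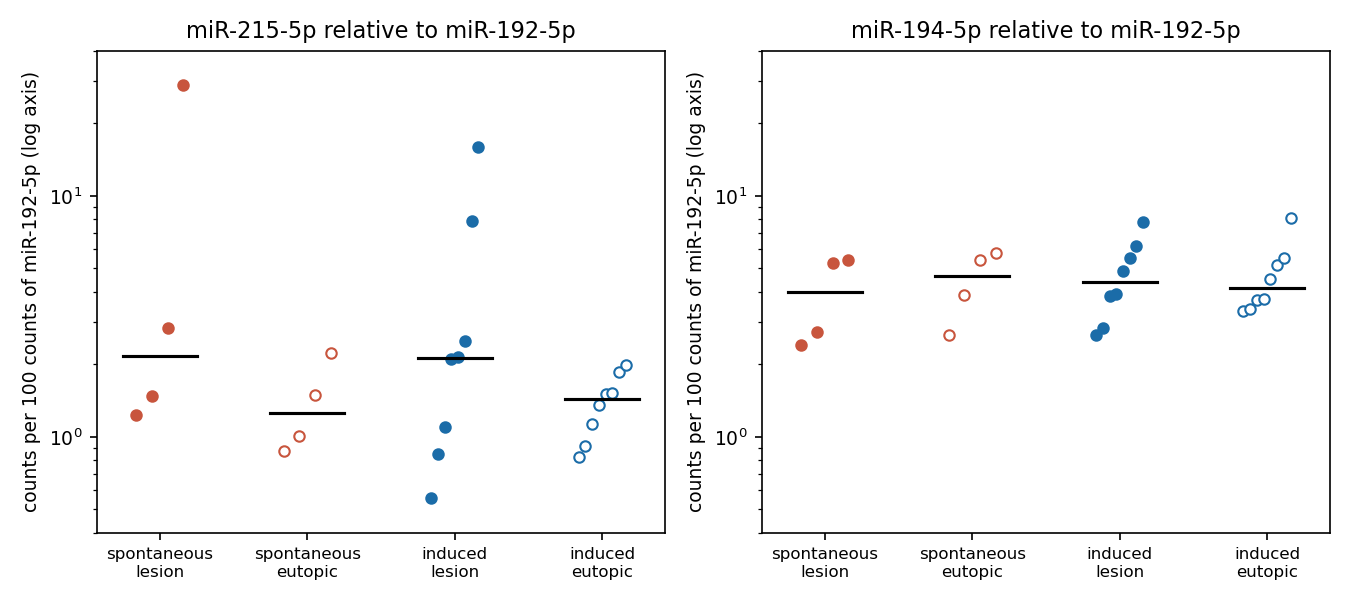
Counts of miR-215-5p (left) and miR-194-5p (right) per 100 counts of miR-192-5p in each library (log axes), by group, with lesions filled, eutopic endometria open and bars at the medians. The miR-215-5p ratio lies between 0.829 and 2.24 in the eutopic endometria and reaches 28.7 in lesions, while the miR-194-5p ratio covers like ranges in all 4 groups.

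Blood and immune marker levels are given beside these ratios. The 4 erythroid miRNAs summed to 42367 CPM in the lesion and 19376 CPM in the eutopic endometrium of spontaneous animal 3, where the ratio of miR-215-5p to miR-192-5p was 28.7 and 2.24 per 100. In induced animals 3 and 4 the erythroid sums were 16827 and 11228 CPM in the lesions, against 293 and 488 CPM in the eutopic endometria. The 2 highest erythroid sums of induced disease, 32583 CPM in the lesion of animal 5 and 18251 CPM in that of animal 1, went with ratios of 2.49 and 2.10 per 100. The 6 leukocyte miRNAs summed to 4158 CPM in the lesion of spontaneous animal 3, 3802 CPM in that of induced animal 3, the highest of the induced lesions, and 1790 CPM in that of induced animal 4, within the range of the other induced lesions. The highest leukocyte sum of all, 15155 CPM in the lesion of spontaneous animal 2, went with a ratio of 2.84 per 100. The part of blood, of immune cells and of reads shared between miR-192-5p and miR-215-5p in these ratios was not tested.

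Against the miR-200 family, which represses the same ZEB factors and marks epithelium, all 3 members were relatively higher in lesions. The median log2 fold change of that family over the 12 pairs was −2.47, against −0.14 for all 527 tested miRNAs. A miRNA at the median of all would therefore also be higher relative to the family. miR-192-5p (−0.93) and miR-194-5p (−0.94) lay below that median of all. The share of all miRNAs with such a rise was not computed, so these ratios do not set the members apart. Over the 12 pairs all 5 miR-200 miRNAs fell, with log2 fold changes of −2.43 for miR-200a-3p, −2.47 for miR-200b-3p, −2.79 for miR-200c-3p, −2.43 for miR-141-3p and −2.64 for miR-429. In induced disease all 5 also fell (median −2.04). All 5 passed over the 12 pairs and in induced disease, where 52.8% of 527 and 43.8% of 507 tested miRNAs passed. In spontaneous disease their median was −3.72 and 0 of 5 passed by edgeR's quasi-likelihood test, with adjusted p-values of 0.0643 to 0.0870. Of all 485 miRNAs tested there, 0.206% passed. The mean log2 CPM of the 5 was lower in the lesion in 12 of 12 animals (differences −5.44 to −0.60).

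The log2 ratio of miR-192-5p to the miR-200 mean was larger in the lesion in 12 of 12 animals, by 1.72 (SD of pairs 1.01, exact two-sided sign-flip p = 4.88e-04, the smallest that 12 pairs can give, adjusted p = 0.00879 over the 36 tests). For miR-194-5p the difference was 1.68 (SD of pairs 1.26, higher in 11 of 12, exact sign-flip p = 9.77e-04, adjusted p = 0.0117). For miR-215-5p it was 2.79 (SD of pairs 1.19, higher in 12 of 12, exact sign-flip p = 4.88e-04, adjusted p = 0.00879). The exception for miR-194-5p was spontaneous animal 1, where the lesion minus eutopic difference in log2 CPM was −2.93 for miR-194-5p and −2.60 for the miR-200 mean. Leaving out any animal kept all 3 adjusted p-values at or under 0.0195.

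In induced disease these ratios were higher in 8 of 8 lesions, by 1.62, 1.61 and 2.46 for miR-192-5p, miR-194-5p and miR-215-5p, each with an exact sign-flip p of 0.00781, the smallest that 8 pairs can give (adjusted p = 0.0427). With 7 pairs the test has less room, and only 1 of the 8 fits that left out an animal kept an adjusted p under 0.05 for each member. In spontaneous disease the differences were 1.93, 1.80 and 3.45, higher in 4, 3 and 4 of 4 animals, where p cannot go below 0.13. Between the diseases, miR-215-5p was higher relative to the miR-200 mean in spontaneous than in induced lesions by 1.89 (exact permutation p = 0.0141, adjusted p = 0.0566). The eutopic endometria differed in the same direction by 0.90 (exact permutation p = 0.0505, adjusted p = 0.179), and the difference of the lesion effects was 0.99 (exact permutation p = 0.180, adjusted p = 0.341). With the 6 measured miRNAs of another epithelial list (among them miR-375-3p and miR-182-5p) in place of the miR-200 mean, no call changed.

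**Figure D4:**
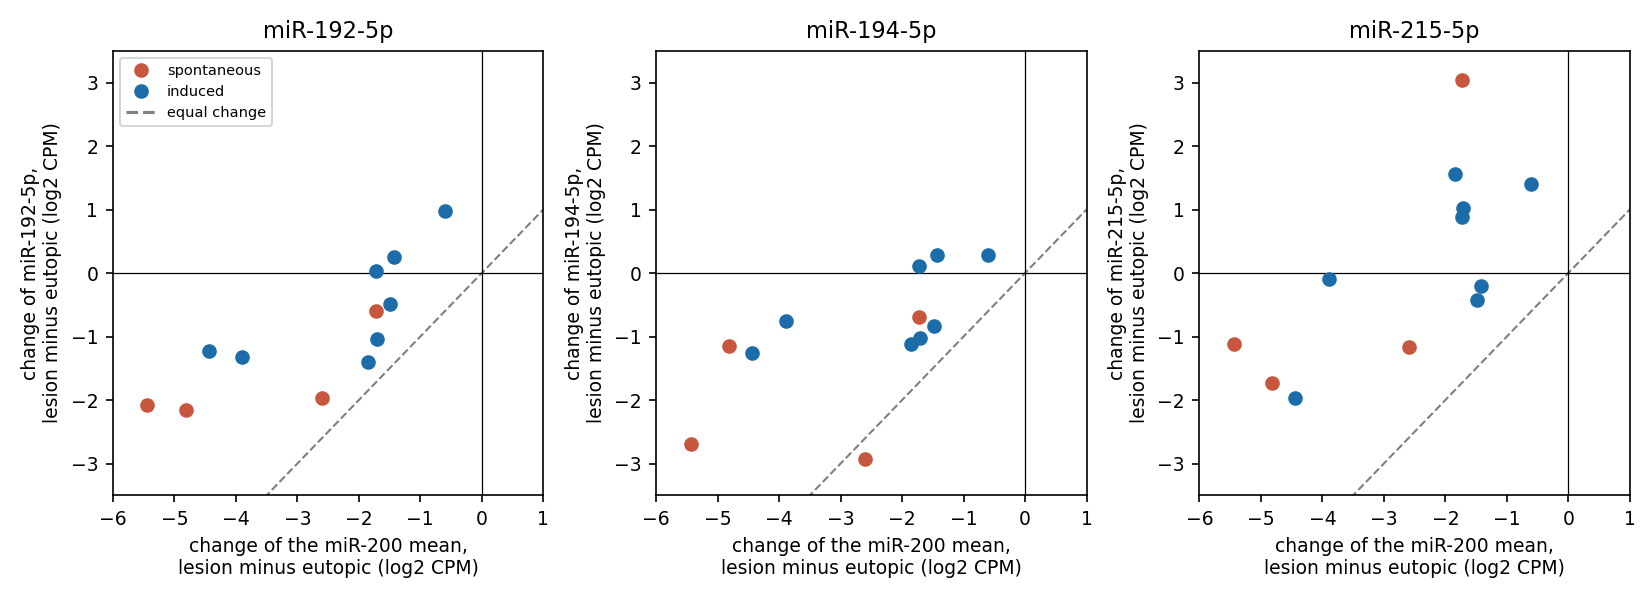
Difference between lesion and eutopic endometrium (log2 CPM) of each member against that of the mean of the 5 miR-200 miRNAs, 1 point per animal, with spontaneous disease in red, induced disease in blue and a dashed line where both would change equally. All 12 points lie above the line for miR-192-5p and miR-215-5p and 11 of 12 for miR-194-5p.

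Across the 24 libraries, log2 CPM of miR-192-5p and miR-194-5p went together (Pearson r = 0.88), whereas r was 0.38 between miR-215-5p and miR-192-5p and 0.39 between miR-215-5p and miR-194-5p (0.49 and 0.54 without the 2 libraries farthest from the median). These are descriptions over libraries that come in pairs from 12 animals and share the tissue difference. Centred on the group means, r was 0.83 between miR-192-5p and miR-194-5p, and 0.64 after leaving out the 2 libraries farthest from the median of miR-194-5p. For the same pair r was 0.88 within the 12 lesions, and 0.77 without the 2 farthest libraries. Within the 12 eutopic endometria it was 0.78, and only 0.23 without the 2 farthest. There miR-192-5p and miR-215-5p had r = 0.75, and 0.34 without the 2 libraries farthest from the median of miR-215-5p. Between miR-194-5p and miR-215-5p r was 0.71 in these endometria, and 0.70 without those 2 libraries.

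The miRNAs most like each member were sought among 325 others by Pearson correlation of log2 CPM over the 24 libraries. For miR-192-5p they were miR-503-3p (r = 0.78), miR-424-5p (0.74) of the same cluster as miR-503, miR-181d-5p (0.74), and the miR-200 family members miR-200a-3p (0.74) and miR-141-3p (0.72). For miR-194-5p they were miR-200a-3p (0.75), miR-17-3p (0.74), miR-200a-5p (0.73), miR-503-3p (0.71) and miR-181d-5p (0.69). The list for miR-215-5p held none of these: miR-25-3p (0.64), miR-148a-5p (0.60), miR-34c-5p (0.60), miR-148a-3p (0.59) and miR-34b-5p (0.58). These lists carry the tissue difference. With the miR-200 mean, r over the 24 libraries was 0.68, 0.70 and 0.40 for miR-192-5p, miR-194-5p and miR-215-5p. Within the 12 lesions it was 0.68, 0.68 and 0.69, and centred on the group means it was 0.50, 0.40 and 0.755. By the last 2 measures miR-215-5p went with the miR-200 mean no less than the other members did. Without the 2 libraries farthest from the median of the miR-200 mean, the centred values were 0.46, 0.34 and 0.54. Within the 12 eutopic endometria r was only 0.04, 0.02 and 0.20, and 0.53, 0.59 and 0.30 without the 2 farthest. miR-34b and miR-34c are known from multiciliated cells and as targets of p53.

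Other miRNAs linked to p53 in human cells moved in both directions over the 12 pairs. Of 11 measured, 4 rose and 1 fell in lesions over the 12 pairs, beside 135 higher and 143 lower among all 527, and the median of the list was −0.06 against −0.14 for all. Those that rose included miR-145-5p (2.70 on the log2 scale) and miR-143-3p (2.48), which are also the main smooth muscle miRNAs, and miR-107 fell by 0.42. The most direct p53 target, miR-34a-5p, had a log2 fold change of 0.997 (SE 0.20), and it and miR-605-5p (1.06) completed the 4 that rose, named here after their values were seen. In induced disease the counts were also 4 and 1, beside 105 higher and 117 lower among all 507. In spontaneous disease 0 of the 9 measured passed, where 0.206% of 485 did. There 8 of the 9 had positive log2 fold changes, with a median of 0.68 against −0.09 for all tested. The share of all 485 with a positive value was not computed. The smooth muscle and fibroblast list, which also holds miR-143-3p and miR-145-5p, had 6 of 8 positive there, with a median of 1.115. The part of p53 was not tested.

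Of the 4 hepatocyte miRNAs, 1 was measured. miR-122-5p, miR-122-3p and miR-802 did not reach the level needed for a test. miR-885-5p reached it, with up to 224 counts in a library, and it fell by 2.33 over the 12 pairs (SE 0.66, edgeR), with means of 1.21 CPM in spontaneous lesions and 6.02 CPM in their eutopic endometria, and of 3.25 CPM in induced lesions and 16.0 CPM in theirs. None of the 6 gonadal miRNAs reached the level for a test.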

How the data were processed

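Total RNA of each tissue was made into Illumina TruSeq small RNA libraries. The authors trimmed reads with Trim Galore 0.3.3, mapped them to human miRNAs of miRBase release 22 with miRDeep2 0.0.7 and deposited the raw counts in 1 table. Their own tests used edgeR 3.22.5. Mapping to human sequences can lose baboon reads that differ, and neither the mismatches allowed nor the treatment of multiply matching reads is stated in the sources used here.

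For each of 2656 mature miRNAs (2888 rows) the precursor row with the highest total was kept. The deposited counts were fitted in R 4.3.3 with edgeR 4.0.16 (TMM, robust quasi-likelihood test, minimum 2 CPM in 2 of the libraries compared, Benjamini-Hochberg adjustment over all miRNAs tested, threshold 0.05). DESeq2 1.42.0 and edgeR-robust were alternatives. Standard errors are the log2 fold change divided by the square root of F. Levels are CPM with TMM factors over all 24 libraries, and log2 CPM used a prior count of 1. Ratios used counts plus 1 and exact permutations (SciPy 1.17.1), adjusted over 36 tests. The scripts were tested on simulated data.

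The labels name the animal of each sample, which pairs lesion with eutopic endometrium, and the animal was a block where both tissues were compared. Within an animal, the tissues' departures from their group means correlated at −0.14 to 0.48 (median 0.18), above 0.1 in 7 of 12 animals. In 68 pairs of libraries within groups, none held duplicate counts (lowest chi-square 134.6 per degree of freedom). The members and lists were chosen with earlier results of these data known. Named miRNAs were the members with their passenger strands, the miR-200 family, the 5 most alike by correlation (average log2 CPM of at least 3) and up to 4 per list by mean CPM, with exceptions named.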

Additional observations from a re-analysis of the deposited data

Results flagged for a closer look

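Values far from the rest of their group by Dixon's criterion were sought in 20 sets of levels and ratios. 8 stood apart. For independent sets with normal spread, chance would give about 1 in 20. The values tested here were CPM and ratios off the log scale, in sets that share libraries, so that rate need not hold.

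Among the 8 values that stood apart, 5 belonged to induced animal 8. Its miR-192-5p level was 1407 CPM in the lesion and 1178 CPM in the eutopic endometrium, where the nearest other animals had 646 and 463 CPM. Its miR-194-5p level was 53.8 CPM in the lesion and 44.0 CPM in the eutopic endometrium, against 18.2 and 22.4 CPM in the nearest others, and its miR-215-5p level was 17.8 CPM in the eutopic endometrium, against 7.54 CPM. The eutopic endometrium of this animal also had the highest summed level of the 7 ciliated cell miRNAs, 1421 CPM, against 241 CPM in the next induced eutopic endometrium, while its lesion had 115 CPM.

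In the lesion of spontaneous animal 3, miR-215-5p stood at 45.9 CPM, against 3.40 CPM in the nearest spontaneous lesion, and its ratio to miR-192-5p was 28.7 per 100, against 2.84. In the eutopic endometrium of induced animal 7, the ratio of miR-194-5p to miR-192-5p was 8.06 per 100, against 5.51 in the nearest, and its lesion had the highest ratio of the induced lesions, 7.82 per 100.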

How the results depend on the processing

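Depth limits miR-215-5p most, with 2 to 313 counts per library, and 4 animals limit spontaneous disease. The fitted log2 fold changes of miR-192-5p and miR-194-5p between lesion and eutopic endometrium were negative in the induced, spontaneous and combined comparisons under each alternative run, whereas those of miR-215-5p changed sign. Each cause was not tested, unless the setting itself gives it.

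With library totals alone, miR-192-5p and miR-194-5p passed in induced disease (−1.54 and −1.52), miR-215-5p stood at −0.54 in induced disease and −0.64 over all pairs, and spontaneous over induced eutopic endometria at −0.33 for miR-192-5p and −0.41 for miR-194-5p. This scaling also moved the median of all tested miRNAs, by −0.95, −0.56 and −0.84 in the induced, spontaneous and combined lesion comparisons. In spontaneous disease miR-192-5p and miR-194-5p passed with no filter on low counts (−1.80 and −1.95), with edgeR-robust (−1.73 and −1.88) and with DESeq2 (−1.68 and −1.83). There the number of miRNAs called, 1 in the quasi-likelihood fit, was 0 with DESeq2 size factors, filterByExpr, summed precursors, no replicate block or miR-143-3p left out before TMM, 14 with library totals, 68 with no filter and 45 with edgeR-robust or DESeq2. edgeR-robust put miR-215-5p at −1.21 between lesions and 0.23 between eutopic endometria of both diseases.

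With no replicate block, miR-192-5p and miR-194-5p no longer passed over all pairs (−0.54 and −0.70), and miR-215-5p stood at 1.29 in spontaneous disease and 0.61 for the difference of lesion effects. Removing the block changed no other call of a member.

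Leaving out 1 animal at a time, the log2 fold change of miR-192-5p in induced disease ranged over −0.75 to −0.41. That of miR-215-5p ranged over −1.38 to 0.33 in spontaneous disease, −0.054 to 0.38 over all pairs, −1.93 to 0.94 between the lesions of both diseases and −1.78 to −0.13 for the difference of lesion effects. Between lesions miR-192-5p ranged over −1.66 to −0.84 and miR-194-5p over −1.88 to −0.88. Between the eutopic endometria the ranges were −0.15 to 0.49 for miR-192-5p, −0.35 to 0.41 for miR-194-5p and −0.22 to 0.36 for miR-215-5p.

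Of the log2 ratios, miR-215-5p to miR-192-5p over all pairs was 1.03 with 0.5 added to each count and 0.62 without spontaneous animal 3 and induced animal 3. Against the other epithelial list, the lesion effect of spontaneous minus induced disease was −0.025 for miR-192-5p and −0.15 for miR-194-5p. The following ranges leave out 1 animal at a time. miR-215-5p to miR-192-5p had 0.83 to 1.21 over all pairs, −0.30 to 1.11 between lesions, −0.26 to 0.18 between eutopic endometria and −0.037 to 0.99 for the difference of lesion effects. miR-215-5p to miR-194-5p had 0.88 to 1.26 over all pairs and −0.080 to 0.37 between eutopic endometria. miR-194-5p to miR-192-5p had −0.087 to 0.094 in induced disease, −0.52 to 0.12 in spontaneous disease, −0.15 to 0.030 over all pairs, −0.23 to 0.15 between eutopic endometria and −0.52 to 0.12 for the difference of lesion effects. To the miR-200 mean in induced disease, miR-192-5p had 1.39 to 1.78, miR-194-5p 1.38 to 1.75 and miR-215-5p 2.26 to 2.65. Between eutopic endometria the same ratios had 0.45 to 1.23, 0.25 to 1.07 and 0.63 to 1.12, and miR-215-5p had 1.52 to 2.26 between lesions. For the difference of lesion effects, miR-192-5p had −0.15 to 0.76 and miR-194-5p −0.44 to 0.88.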
